A study of Mus musculus with 12 samples.

Results

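The BCL2 family sets the threshold at which a cell dies through its mitochondria, and 10 of its genes were followed here in LT-HSCs, the long-term stem cells of blood, taken from mouse bone marrow. The 10 were named by their symbols, with earlier results of these data known. They are the guards Bcl2, Bcl2l1 and Mcl1, the effectors Bax and Bak1, and the BH3-only genes Bcl2l11, Bad, Bid, Bbc3 and Pmaip1. All 10 were among the 23472 genes of the deposited count table, and 9 of them were among the 13184 genes that passed the filter on low counts. Pmaip1 did not pass and was described by its counts alone.

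The study compared 6 poly-A RNA-seq libraries labelled Jak1 KO, from cre-positive C57BL/6 mice, with 6 libraries labelled wt, from cre-negative C57BL/6 mice. Animals of both groups had received 4 doses of poly(I:C), an interferon-inducing double-stranded RNA given here to delete the gene, with bone marrow taken 4 to 6 weeks later, so the wt cells too had been exposed to it. The labels do not state the animals' age, the promoter of the cre transgene or the Jak1 allele. Column names of replicates 1 to 3 begin with MXminus in wt and MXplus in libraries labelled Jak1 KO, and what MX means is not stated. Only the group labelled Jak1 KO carried cre, so effects of cre and of a Jak1 deletion cannot be told apart. In each group, replicates 1 to 3 carry VD names and replicates 4 to 6 carry ZL names, which makes 3 libraries of each name set. Whether replicates came from separate animals is not stated, so a p-value here reflects how far these libraries scatter, which may be technical in part.

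In this family the guards hold the effectors Bax and Bak1 inactive. The BH3-only proteins report stress or loss of growth factor signals, and they either occupy the guards or activate the effectors directly. Active effectors then open the outer mitochondrial membrane, which releases cytochrome c and starts the caspases. In mice, Mcl1 is needed for the survival of haematopoietic stem cells and forced Bcl2 enlarges their pool. JAK kinases lie upstream, because cytokine receptors signal through STAT factors that can raise transcription of guard genes.

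Depth ranged from 8989965 to 28701855 counts per library. The LT-HSC markers were present, with a summed level over 13 genes of 2547 to 5237 CPM (normalised counts per unit of library size, as defined by edgeR's cpm) in libraries labelled Jak1 KO and 2737 to 5382 in wt. Of the 7 T and NK cell markers, Cd3e, Cd3d and Cd3g were at no more than 0.468 CPM in any library, while Nkg7 averaged 54.5 CPM in libraries labelled Jak1 KO and 58.3 CPM in wt, and the summed level reached 195.0 CPM in Jak1 KO 4. Summed granulocyte markers reached 1508 CPM in libraries labelled Jak1 KO and 1518 CPM in wt, and monocyte and macrophage markers 954 and 501 CPM. Jak1 itself stood at 422 ± 160.4 CPM in libraries labelled Jak1 KO and 373 ± 45.3 in wt (SD, n = 6 each), and a count summed over a whole gene cannot show the loss of some of its exons, so it does not check the labels. Irf9, an interferon-response factor, fell to 47.0 ± 7.42 CPM in libraries labelled Jak1 KO, against 123 ± 36.5 in wt (edgeR log2 fold change -1.35, adjusted p = 0.00034). The name sets differed widely, with ribosomal Rn45s taking 14.8% to 22.6% of counts in VD and 0.511% to 0.950% in ZL, and with 60.0% of all tested genes past the threshold between ZL and VD libraries at equal genotype. The ZL libraries were uneven, and Jak1 KO 4 stood farthest apart. Its sample quality weight in limma was 0.165, against 0.215 to 3.18 in the other 11, and its log2 CPM relative to the ZL median fell with exon length (Spearman -0.51 across 12392 genes, which are not independent replicates). Length trends were also present in Jak1 KO 5 (-0.23), Jak1 KO 6 (0.44), wt 4 (0.23), wt 5 (-0.33) and wt 6 (0.37), and quality weights were low in Jak1 KO 6 (0.359), wt 4 (0.406) and wt 6 (0.215). Results are therefore given within each set, and without Jak1 KO 4 where that library matters.

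No family member passed the test of genotype. By edgeR's quasi-likelihood test, adjusted over all genes, 0 of 9 tested members were past 0.05, where 0.440% of all tested genes were. DESeq2 and limma-voom also called 0 of the 9. At an unadjusted p under 0.05 there were 2 members, Bcl2 and Bcl2l1, against 5.06% of all genes. Log2 fold changes (labelled Jak1 KO over wt) were below 0 for 5 members and above 0 for 4, with a median of -0.094, against a median of -0.006 over all tested genes. The lower values were those of the 3 guards, Bcl2l11 and Bak1. The genotype effect was not shown to differ between name sets for any member, as the interaction term called 0 of 9, where edgeR called 0% of all genes. DESeq2 and limma-voom called 0 of 9 for it too, and before adjustment 0 of 9 were under 0.05, where 1.38% of all genes were.

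**Figure D1:**
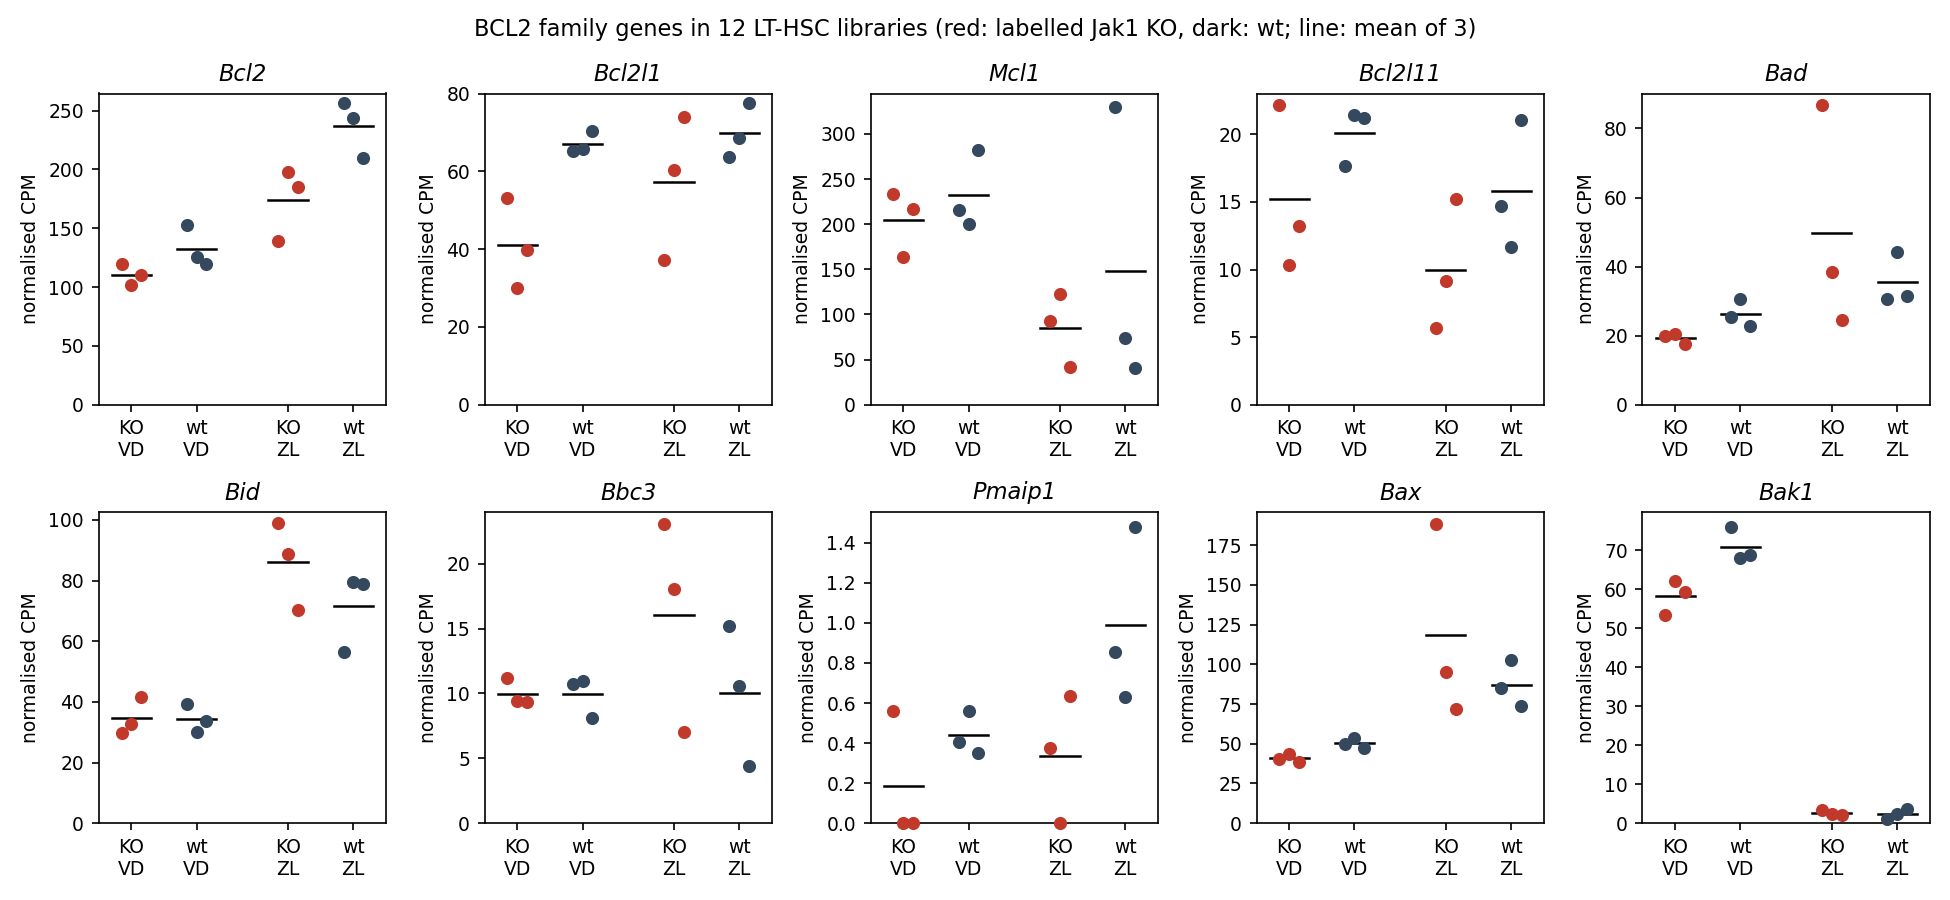
Normalised CPM (vertical axis, linear from 0) of the 10 BCL2 family genes in each of 12 libraries, in groups of 3 by genotype and name set; points are libraries and lines are means. Bcl2 is lower in every library labelled Jak1 KO than in any wt library of its set, Mcl1 spreads from 41.0 to 330.3 CPM within ZL, and Bak1 is at 53.4 CPM or more in VD and at 3.66 CPM or less in ZL.

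Bcl2, the founding guard, binds BH3-only proteins and effectors at the mitochondrial and endoplasmic reticulum membranes. The gene lies on chromosome 1 from 106538178 to 106714274, on the minus strand (GRCm38). In the VD set it was counted at 119, 102 and 110.2 CPM in libraries labelled Jak1 KO, against 153, 126 and 119 CPM in wt. In the ZL set it was at 139.5, 197 and 185 CPM in libraries labelled Jak1 KO, against 257, 244 and 209.6 CPM in wt. All 6 libraries labelled Jak1 KO thus lay below every wt library of their set, although in VD the margin between Jak1 KO 1 (119.2 CPM) and wt 3 (119.3 CPM) was narrow. Such an arrangement toward lower values was found for 1 of the 9 tested members and for 0.963% of all tested genes. The level was 1.28-fold lower (log2 fold change -0.36, SE 0.14, 95% interval -0.65 to -0.065), and edgeR's adjusted p over all genes was 0.818. An exact two-sided permutation test of genotypes within sets gave p = 0.005 for Bcl2 alone, the smallest that its 400 relabelings can give and not adjusted for the choice of gene. Its log2 fold change was -0.22 (SE 0.10) in VD alone and -0.45 (SE 0.26) in ZL alone. Without Jak1 KO 4 it was -0.25 (edgeR adjusted p = 0.785). In bulk RNA, a smaller share of cells that express a gene and less of its RNA per cell cannot be told apart.

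Bcl2l1 encodes BCL-XL, a guard with a known role in platelet and red cell lifespan and a known target of STAT5. It lies on chromosome 2 from 152780668 to 152831728, on the minus strand. VD libraries held 53.1, 30.1 and 39.9 CPM where labelled Jak1 KO, against 65.2, 65.9 and 70.3 CPM in wt, so the groups did not overlap. ZL libraries held 37.2, 60.4 and 74.1 CPM where labelled Jak1 KO, against 63.8, 68.5 and 77.7 CPM in wt. Here Jak1 KO 4 and Jak1 KO 5 lay below all 3 wt libraries, while Jak1 KO 6 lay among them. The wt values were tight, with a coefficient of variation of 7.36% over 6 libraries, against 33.5% in the libraries labelled Jak1 KO. Over both sets the level was 1.41-fold lower (log2 fold change -0.50, SE 0.19, 95% interval -0.91 to -0.085, edgeR adjusted p = 0.824). The exact permutation test within sets gave p = 0.02, not adjusted for the choice of gene. In VD alone the log2 fold change was -0.67 (SE 0.17), with an edgeR adjusted p of 0.0786, the smallest of any member in any of the fits run. In ZL alone it was -0.29 (SE 0.31). Without Jak1 KO 6 the log2 fold change was -0.62 (edgeR adjusted p = 0.350), and without Jak1 KO 4 it was -0.38 (adjusted p = 0.783). For the tested members other than Bcl2, Bcl2l1 and Bcl2l11, the exact permutation test gave p = 0.355 (Bid) to 0.97 (Bax and Bak1).

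A megakaryocyte marker list was also read beside these guards. The summed level of 6 markers (Pf4, Itga2b, Gp1bb, Gp9, Ppbp and Vwf) ranged from 453 to 782 CPM in libraries labelled Jak1 KO and from 1018 to 1376 CPM in wt, without overlap. The summed levels of the other marker lists all overlapped between the groups. Of the 6, 1 passed the test, Itga2b, where 0.440% of all tested genes did. Most of the sum lay in Itga2b (mean 267.6 CPM in libraries labelled Jak1 KO and 547 CPM in wt), Pf4 (131 and 276) and Vwf (139 and 266). Gp9 averaged 52.0 CPM in libraries labelled Jak1 KO and 51.5 CPM in wt, and Ppbp 12.3 CPM in libraries labelled Jak1 KO and 10.7 CPM in wt. None of the 6 was at a mean under 1 CPM. The part of this difference in the values of Bcl2 and Bcl2l1 was not tested. Among 9934 other genes of at least 10 CPM on average, the profiles most like that of Bcl2 were those of Slc22a3, an organic cation transporter (Pearson r = 0.94, Spearman 0.95), Ckap2l, a spindle protein (0.93 and 0.98), and Plek, pleckstrin of platelets and leukocytes (0.89 and 0.88). Likeness was measured on log2 CPM centred within name set over the 12 libraries, and all genes share the depth and preparation of each library. The genotype difference was left in, so the likeness includes it. Slc22a3, Ckap2l and Plek were each lower in every library labelled Jak1 KO than in any wt library of their set. This arrangement, found for 0.963% of all tested genes, follows in part from choosing genes for likeness to Bcl2, which shares it. Slc22a3, for one, was at 96.2 to 140.2 CPM in libraries labelled Jak1 KO and 162.3 to 217.8 CPM in wt.

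Mcl1, the short-lived guard, was the most variable of the 3. It lies on chromosome 3 from 95658788 to 95663176, on the plus strand. In VD it stood at 233, 164 and 216 CPM in libraries labelled Jak1 KO, against 215, 199.7 and 283 CPM in wt, so the groups overlapped. In ZL it stood at 92.2, 122 and 41.5 CPM in libraries labelled Jak1 KO, against 330.3, 73.4 and 41.0 CPM in wt. The wt libraries of that set alone spanned 8.06-fold, from the lowest Mcl1 level of all 12 libraries (wt 6) to the highest (wt 4). The genotype difference was well within this spread (log2 fold change -0.49, SE 0.42, 95% interval -1.38 to 0.40, edgeR adjusted p = 0.945), and without wt 4 its sign turned (log2 fold change 0.15, edgeR adjusted p = 0.980).

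Promoter sequence is shown for the 3 members with the smallest genotype p-values, Bcl2, Bcl2l1 and Bcl2l11, since a kinase upstream of STAT factors is the subject of the comparison. The windows run from 250 bases before to 50 after a RefSeq start site (GRCm38.p6), read 5′ to 3′ on the strand of the gene, and capitals mark every match to a motif searched. Bcl2 is at chr1:106714241-106714540 (minus strand), Bcl2l1 at chr2:152828440-152828739 (minus strand, one of its 3 windows) and Bcl2l11 at chr2:128125788-128126087 (plus strand, one of its 2 windows).
Bcl2: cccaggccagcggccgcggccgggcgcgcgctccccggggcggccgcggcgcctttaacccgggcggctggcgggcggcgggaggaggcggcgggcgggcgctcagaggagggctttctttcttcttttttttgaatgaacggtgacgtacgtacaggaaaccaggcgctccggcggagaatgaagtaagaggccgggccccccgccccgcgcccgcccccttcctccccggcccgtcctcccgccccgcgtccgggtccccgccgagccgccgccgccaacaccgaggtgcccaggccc
Bcl2l1: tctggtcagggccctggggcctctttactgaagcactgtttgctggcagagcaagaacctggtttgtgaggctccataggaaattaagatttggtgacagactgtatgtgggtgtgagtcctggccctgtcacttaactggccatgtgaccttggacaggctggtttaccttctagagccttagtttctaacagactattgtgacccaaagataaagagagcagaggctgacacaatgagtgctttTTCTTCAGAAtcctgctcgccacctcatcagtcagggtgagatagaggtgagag
Bcl2l11: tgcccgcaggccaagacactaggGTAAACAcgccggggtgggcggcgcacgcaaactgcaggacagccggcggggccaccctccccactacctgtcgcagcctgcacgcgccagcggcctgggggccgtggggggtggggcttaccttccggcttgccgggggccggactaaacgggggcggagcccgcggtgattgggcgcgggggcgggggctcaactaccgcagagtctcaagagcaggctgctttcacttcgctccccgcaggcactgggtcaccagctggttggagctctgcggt
The motifs were the STAT element TTCNNNGAA, its wider form with 4 free bases between TTC and GAA, the interferon element core of GAAA, 2 free bases and GAAA, the FOXO core TGTTTAC and the E-box CACGTG, each on both strands, and no matches in members overlapped. TTCNNNGAA was in 0 of the 15 windows of 9 members and in 8.30% of all 32851 windows of this length. The interferon core was in 0 of 15 and in 3.44% of all. The wider STAT form was in the one Bcl2l1 window shown, and in 6.95% of all. TGTTTAC was in the Bcl2l11 window shown (as gtaaaca on the other strand) and in one Bbc3 window, and in 3.65% of all. CACGTG was in one window each of Bax and Bbc3, and in 7.15% of all. The missing matches say only that these letters are not in these windows.

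The effectors Bax and Bak1 form the pores of the outer mitochondrial membrane. Bax lies on chromosome 7 from 45461697 to 45466898. In VD it stood at 40.1, 43.6 and 38.8 CPM in libraries labelled Jak1 KO, against 49.8, 53.8 and 47.5 CPM in wt, without overlap. In ZL it stood at 188, 95.1 and 72 CPM in libraries labelled Jak1 KO, against 85.1, 103 and 73.8 CPM in wt. The high value was that of Jak1 KO 4, which was 1.98 times the next highest library of its genotype. Over both sets the log2 fold change was 0.073 (SE 0.23, 95% interval -0.41 to 0.56, edgeR adjusted p = 0.968). It was -0.26 (SE 0.14) in VD alone and 0.43 (SE 0.39) in ZL alone, and without Jak1 KO 4 it turned to -0.16 (edgeR adjusted p = 0.999). Bax has the shortest exons of the 10 members, at 1576 bases. Whether the length trend of Jak1 KO 4 accounts for its Bax level was not tested.

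Bak1 separated the name sets far more than the genotypes. It lies on chromosome 17 from 27019810 to 27029009. VD libraries held 53.4, 62.2 and 59.4 CPM where labelled Jak1 KO, against 76.1, 68.0 and 68.7 CPM in wt. ZL libraries held 3.39, 2.35 and 2.11 CPM where labelled Jak1 KO, against 1.16, 2.26 and 3.66 CPM in wt. At equal genotype the ZL level was 26.0-fold lower than the VD level (log2 fold change -4.70 for ZL over VD, edgeR adjusted p = 9.95e-09). Of all 13184 tested genes, 38 fell by as much or more, Bak1 included, and the median over all genes was 0.20. Exons of Ggnbp1, on the opposite strand, overlap 25.5% of the exon bases of Bak1, and its own log2 fold change for ZL over VD was -2.48. Without a stated strand setting, reads in the shared bases cannot be assigned. Name set is confounded with library preparation and sequencing as far as these may have differed, so the source of the Bak1 difference cannot be told apart. Between genotypes the groups did not overlap in VD, where the log2 fold change was -0.25 with an SE of 0.12 (adjusted p = 0.373 by edgeR). They overlapped in ZL (0.15, SE 0.49), and over both sets the value was -0.094 (SE 0.23, edgeR adjusted p = 0.959).

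Within VD, Bcl2, Bcl2l1, Bax, Bak1 and Bad were each lower in all 3 libraries labelled Jak1 KO than in all 3 wt libraries. That is 5 of 9 tested members, and 13.2% of all tested genes showed the same arrangement. Mcl1, the remaining guard, overlapped between the groups there. None of the 9 passed edgeR's adjusted threshold in VD alone, where 1.15% of all genes did, and before adjustment 3 (Bcl2, Bcl2l1 and Bad) were under 0.05, where 13.6% of all genes were. In ZL the same separation was seen for Bcl2 only, against 2.34% of all genes, and before adjustment 0 of 9 members were under 0.05, where 1.63% of all genes were. The opposite arrangement, with every library labelled Jak1 KO above every wt library, was found for 0 of 9 members in VD (6.61% of all genes), 0 of 9 in ZL (1.99%) and 0 of 9 in both (0.425%). In ZL alone edgeR's adjusted threshold was passed by 0% of all genes.

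**Figure D2:**
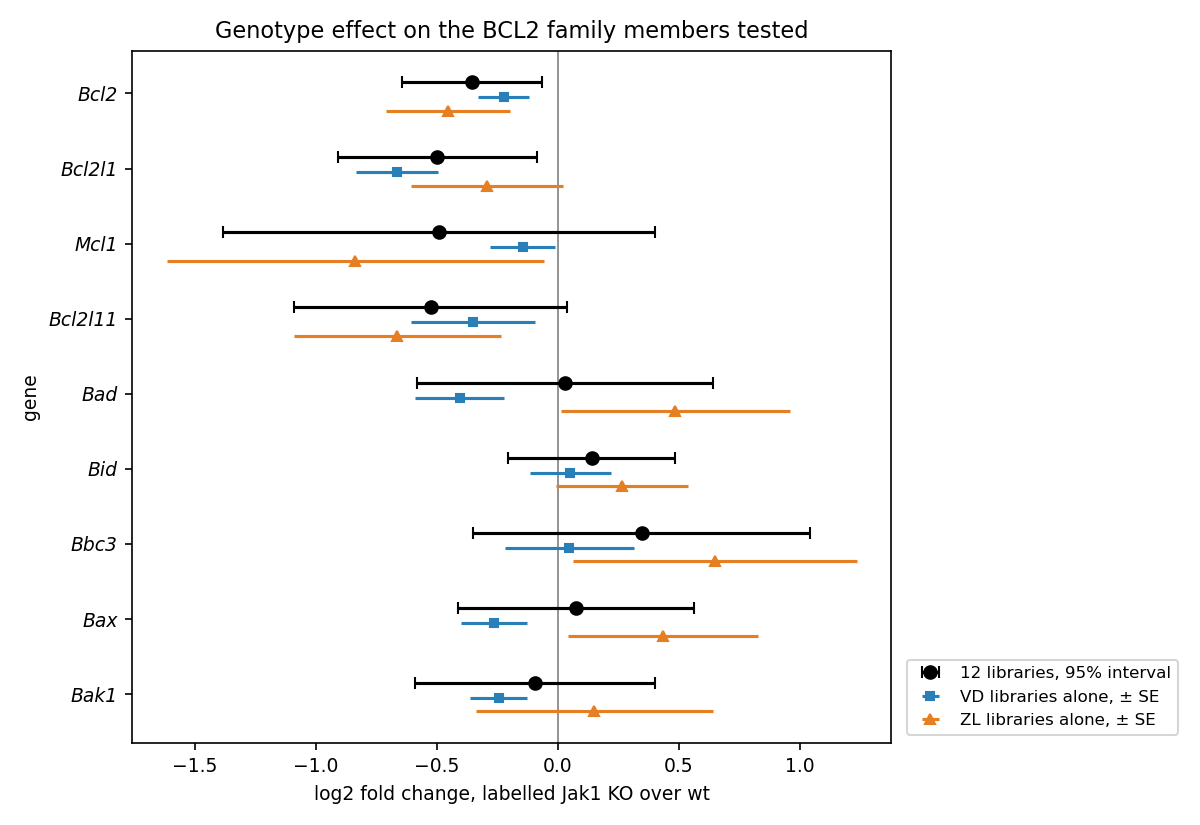
Log2 fold change (horizontal axis, labelled Jak1 KO over wt) of the 9 members tested, for all 12 libraries with 95% intervals and for each name set alone with SE. The intervals of Bcl2 and Bcl2l1 lie below 0 before adjustment over all genes, and Bad, Bax and Bak1 lie below 0 in VD and above 0 in ZL.

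Of the BH3-only genes that passed the filter on low counts, Bcl2l11 (BIM, which binds every guard and rises in mouse blood cells when growth factors are withdrawn) had the lowest fold change. In VD it stood at 22.2, 10.4 and 13.2 CPM in libraries labelled Jak1 KO, against 17.7, 21.4 and 21.2 CPM in wt. In ZL it stood at 5.65, 9.13 and 15.2 CPM in libraries labelled Jak1 KO, against 14.7, 11.7 and 21.1 CPM in wt. The groups overlapped in both sets, with 2 of 3 libraries labelled Jak1 KO below all wt libraries in each. The log2 fold change was -0.53 (SE 0.26, 95% interval -1.09 to 0.037, edgeR adjusted p = 0.945, exact permutation p = 0.075), and it was -0.28 with limma-voom. On log2 CPM centred within name set, its profile followed that of Bcl2l1, with r = 0.87 (Spearman 0.67) over 12 libraries and 0.81 (0.58) over the 11 without Jak1 KO 4. A guard and a BH3-only gene thus varied together over these libraries, on a scale that keeps the genotype difference. The exons of Bcl2l1 (4586 bases) and Bcl2l11 (8029 bases) are among the longest of the members. The part of the length trends of the ZL libraries in this likeness was not tested.

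Bad, a BH3-only protein held inactive by growth factor kinases through 14-3-3 binding, behaved like Bax. VD libraries held 19.9, 20.5 and 17.6 CPM where labelled Jak1 KO, against 25.5, 30.7 and 22.8 CPM in wt. ZL libraries held 86.7, 38.4 and 24.5 CPM where labelled Jak1 KO, against 30.7, 44.4 and 31.3 CPM in wt. As for Bax, the groups were apart in VD and Jak1 KO 4 held the highest value in ZL, 2.26 times the next library of its genotype. The log2 fold change was 0.029 (SE 0.29, 95% interval -0.58 to 0.64, edgeR adjusted p = 0.992), and without Jak1 KO 4 it was -0.28 (edgeR adjusted p = 0.999). Bad and Bax had the closest profiles of any pair of tested members on the same centred scale. Their r was 0.98 (Spearman 0.97) over 12 libraries and 0.95 (0.96) over 11 without Jak1 KO 4. The exons of Bax (1576 bases) and Bad (2558 bases) are among the shorter of the members. The part of the length trends of the ZL libraries in this likeness was not tested. Exons of Gpr137, on the opposite strand, overlap 20.5% of the exon bases of Bad.

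Bid, which links death receptors to mitochondria once caspase-8 has cut it, averaged 34.7 ± 6.29 CPM in VD libraries labelled Jak1 KO and 34.4 ± 4.70 CPM in VD wt (SD, n = 3 each). In ZL it averaged 86.1 ± 14.6 CPM in libraries labelled Jak1 KO and 71.7 ± 13.2 CPM in wt. The log2 fold change was 0.14 (SE 0.16, 95% interval -0.20 to 0.48), the narrowest interval of the BH3-only genes tested, and the groups overlapped in both sets. It was 0.059 without wt 4, 0.086 without Jak1 KO 3 and 0.013 with limma-voom. Exons of Bcl2l13, a further family member on the opposite strand, overlap 17.7% of its exon bases.

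Bbc3 (PUMA), a target of p53 and FOXO3, averaged 9.98 ± 1.04 CPM in VD libraries labelled Jak1 KO and 9.94 ± 1.58 CPM in VD wt. In ZL it stood at 23.1, 18.1 and 7.01 CPM in libraries labelled Jak1 KO, against 15.2, 10.6 and 4.40 CPM in wt. The log2 fold change was 0.35 (SE 0.33, 95% interval -0.35 to 1.04, edgeR adjusted p = 0.945), with overlap in both sets. It was 0.15 without wt 6 and 0.19 without Jak1 KO 4.

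Pmaip1 (NOXA), which selectively occupies MCL1, was near the limit of detection. VD libraries held 7, 0 and 0 counts where labelled Jak1 KO, against 6, 5 and 4 counts in wt. ZL libraries held 5, 0 and 16 counts where labelled Jak1 KO, against 22, 19 and 40 counts in wt. All 3 libraries at 0 were labelled Jak1 KO, and a count of 0 allows up to 0.366 CPM in Jak1 KO 2, 0.281 in Jak1 KO 3 and 0.0951 in Jak1 KO 5 (3 counts per library, counting error only). Pooled, 28 counts were found among 98259126 in libraries labelled Jak1 KO (exact Poisson 95% interval 18.6 to 40.5 counts) and 96 among 114888560 in wt (77.8 to 117). The pooled interval does not include the spread between libraries. In the edgeR fit with no filter on low counts the log2 fold change was -1.32 (adjusted p = 0.905), and in ZL alone, where Pmaip1 passed the filter, it was -1.58 (adjusted p = 0.946). Wt libraries all held counts, but the groups overlapped in both sets.

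Compared per kb of exon (normalised CPM per kb, with the exon length merged over GENCODE transcripts), Mcl1 led the family in VD, with a median of 63.1 and a range of 48.0 to 82.7 over 6 libraries. Bax (24.6 to 34.1) and Bak1 (22.2 to 31.6) came next and overlapped each other, then Bcl2 (11.1 to 16.7) and Bcl2l1 (6.57 to 15.3), which also overlapped. In ZL Bax led with a median of 57.2 and a range of 45.7 to 119.5, which overlapped that of Mcl1 (12 to 96.6). Bid (15.9 to 27.9), Bcl2 (15.2 to 28.1) and Bcl2l1 (8.12 to 16.9) followed, and Bak1 was next to last (0.483 to 1.52). Pmaip1 was last in both sets, with no library above 0.542, and Bcl2l11 was low in both, at 0.704 to 2.77 over all 12 libraries. Bak1 thus ranked the third in VD and the ninth in ZL, and Bid the sixth in VD and the third in ZL. The Bax value of 119.5 was that of Jak1 KO 4, the library with the strongest length trend (Spearman -0.51). The part of the length trends of the ZL libraries in these per kb values was not tested.

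**Figure D3:**
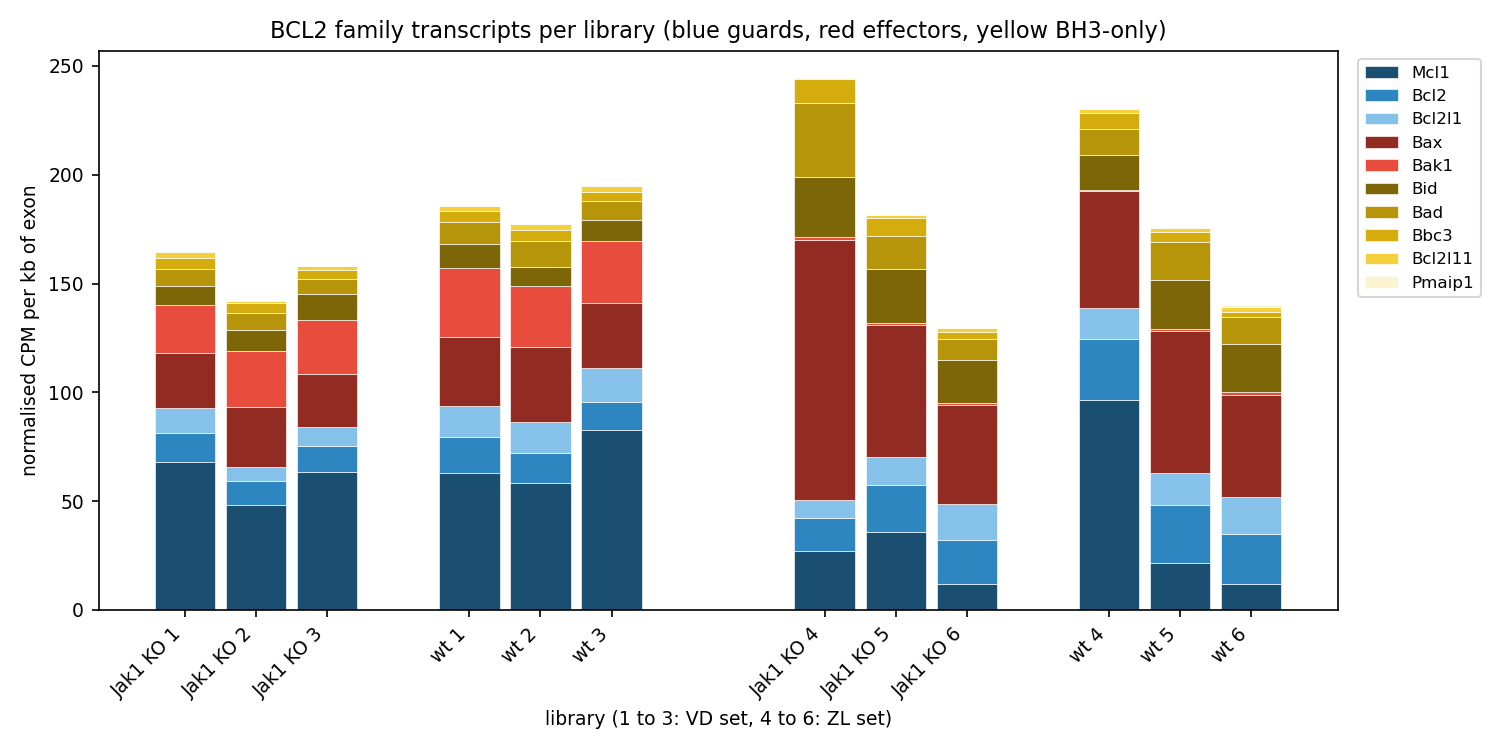
Normalised CPM per kb of exon (vertical axis) of the 10 members, stacked by library, with guards in blue, effectors in red and BH3-only genes in yellow. Bak1 fills a visible band in libraries 1 to 3 and almost none in libraries 4 to 6, and the total is highest in Jak1 KO 4, where Bax is at 119.5.

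The balance of guards against the rest of the family was described from these per kb values, without a test. In VD the 3 guards made up 56.3%, 46.2% and 53.2% of the family total in libraries labelled Jak1 KO, against 50.6%, 48.8% and 57.0% in wt. In ZL they made up 20.6%, 38.8% and 37.3% in libraries labelled Jak1 KO, against 60.2%, 35.9% and 37.0% in wt. The groups overlapped in both sets, and the extremes were Jak1 KO 4, with the most Bax, and wt 4, with the most Mcl1. Mcl1 held 73.1% to 75.3% of the guard total in VD libraries labelled Jak1 KO and 67.1% to 74.5% in VD wt. In ZL it held 25.0% to 53.6% in libraries labelled Jak1 KO and 23.1% to 69.7% in wt. With Mcl1 set aside, a split made after the values were seen, Bcl2 and Bcl2l1 together reached 24.6, 17.7 and 20.7 CPM per kb in VD libraries labelled Jak1 KO, against 30.9, 28.1 and 28.4 in VD wt. In ZL the same sum was 23.4, 34.7 and 36.3 in libraries labelled Jak1 KO, against 42.0, 41.6 and 39.8 in wt. It was thus lower in all 6 libraries labelled Jak1 KO than in any wt library of their set, as Bcl2 alone already was. The sums of effectors and of BH3-only genes were lower in VD too, without overlap, as were 13.2% of all tested genes taken singly. Effectors summed to 47.6 to 53.5 in VD libraries labelled Jak1 KO and 58.7 to 63.2 in VD wt, and BH3-only genes to 22.9 to 24.7 and 25.0 to 28.5. For the BH3-only sum the margin between Jak1 KO 3 (24.7) and wt 3 (25.0) was narrow. Of the BH3-only genes, Bad alone was apart in VD, and the VD log2 fold changes of Bid (0.052) and Bbc3 (0.048) were above 0. In ZL the sums of effectors and of BH3-only genes overlapped between the groups. The Bax to Bcl2 ratio on the log2 scale was 0.97, 1.32 and 1.03 in VD libraries labelled Jak1 KO, against 0.92, 1.31 and 1.21 in VD wt. In ZL it was 2.97, 1.49 and 1.18 in libraries labelled Jak1 KO, against 0.94, 1.29 and 1.03 in wt.

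The wider cell death machinery showed 1 called gene among the lists examined. Of 104 genes in 13 lists, 103 were in the table and 95 were tested. Of these, 1 was lower, 0 were higher and 94 did not pass, against 0.432% of all tested genes lower and 0.00758% higher. The median log2 fold change over the 95 was -0.079. The called gene was Zbp1, an interferon-inducible sensor of Z-form nucleic acid that triggers necroptosis. It stood at 1.36, 3.78, 3.93, 9.95, 2.79 and 4.02 CPM in libraries Jak1 KO 1 to 6, against 17.8, 11.8, 14.6, 12.8, 15.9 and 24.1 CPM in wt 1 to 6. All libraries labelled Jak1 KO lay below all wt libraries. The log2 fold change was -1.97 with an SE of 0.35, at an adjusted p of 0.0218 by edgeR. The call was lost without any one of Jak1 KO 2, 3, 5 and 6 and wt 1, 3 and 6, with adjusted p up to 0.0661.

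Among the 10 interferon-linked death genes, 8 had log2 fold changes below 0, with a median of -0.43, and 9 did not pass. Of those 9, the genes named next were chosen after their values were seen. Xaf1, an antagonist of the caspase inhibitor XIAP, was at -0.68 (SE 0.24) and Tnfsf10, which encodes the death ligand TRAIL, at -0.55 (SE 0.26). Casp12 was at -0.45 (SE 0.14) and Eif2ak2 at -0.44 (SE 0.14). The values above 0 were those of Ripk3 (0.057, SE 0.14) and Casp4 (0.021, SE 0.20). Of the 11 apoptosome and caspase genes, 0 passed, the nearest being Dffa, the inhibitor of the caspase-activated nuclease, at 34.2 CPM in libraries labelled Jak1 KO and 43.6 CPM in wt (log2 fold change -0.34, unadjusted p = 0.0496). None of the 14 p53 pathway genes passed (Perp nearest, at 7.94 CPM in libraries labelled Jak1 KO and 5.06 in wt), nor any of the 7 FOXO and stress factor genes (Trib3 nearest, 28.3 and 18.7 CPM). The 8 death receptor genes, with Tnfrsf1a nearest, and the 7 caspase inhibitors and their antagonists, with Birc3 nearest, had medians of -0.031 and 0.020 and 0 calls each. The 8 mitochondrial channel and dynamics genes (Dnm1l nearest, -0.14) and the 7 genes of MCL1 turnover that were tested (Fbxw7 nearest, -0.22) had 0 calls each.

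Of the 15 genes that control BAD and BIM, 0 passed. Pim1, a STAT-induced survival kinase that phosphorylates BAD, stood at 165, 368 and 184 CPM in VD libraries labelled Jak1 KO, against 158, 197 and 194.5 CPM in VD wt. In ZL it stood at 28.7, 146 and 20.3 CPM in libraries labelled Jak1 KO, against 19.4, 26.5 and 11.6 CPM in wt, for a log2 fold change of 1.07 (SE 0.46, edgeR adjusted p = 0.902). Without Jak1 KO 5 this was 0.37. Of the other BCL2 relatives, the guard Bcl2l2 (0.052), the effector-like Bok (0.38), the BH3-only Bmf (0.40) and the mitophagy receptor Bnip3 (0.28) did not pass. For all lists with 0 calls, the counts at an unadjusted p under 0.05 were 1 apoptosome or caspase gene, 1 FOXO or stress factor and 1 gene of BAD and BIM control, with 0 in the others. The interferon-linked list had 4 of 10 (Zbp1, Xaf1, Casp12 and Eif2ak2). That makes 7 of 95 over all lists, where 5.06% of all tested genes were under that threshold. The DESeq2 fit called 1 gene over all lists and 126 over the whole table, and limma-voom called 3 over all lists and 220 over the whole table.

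**Figure D4:**
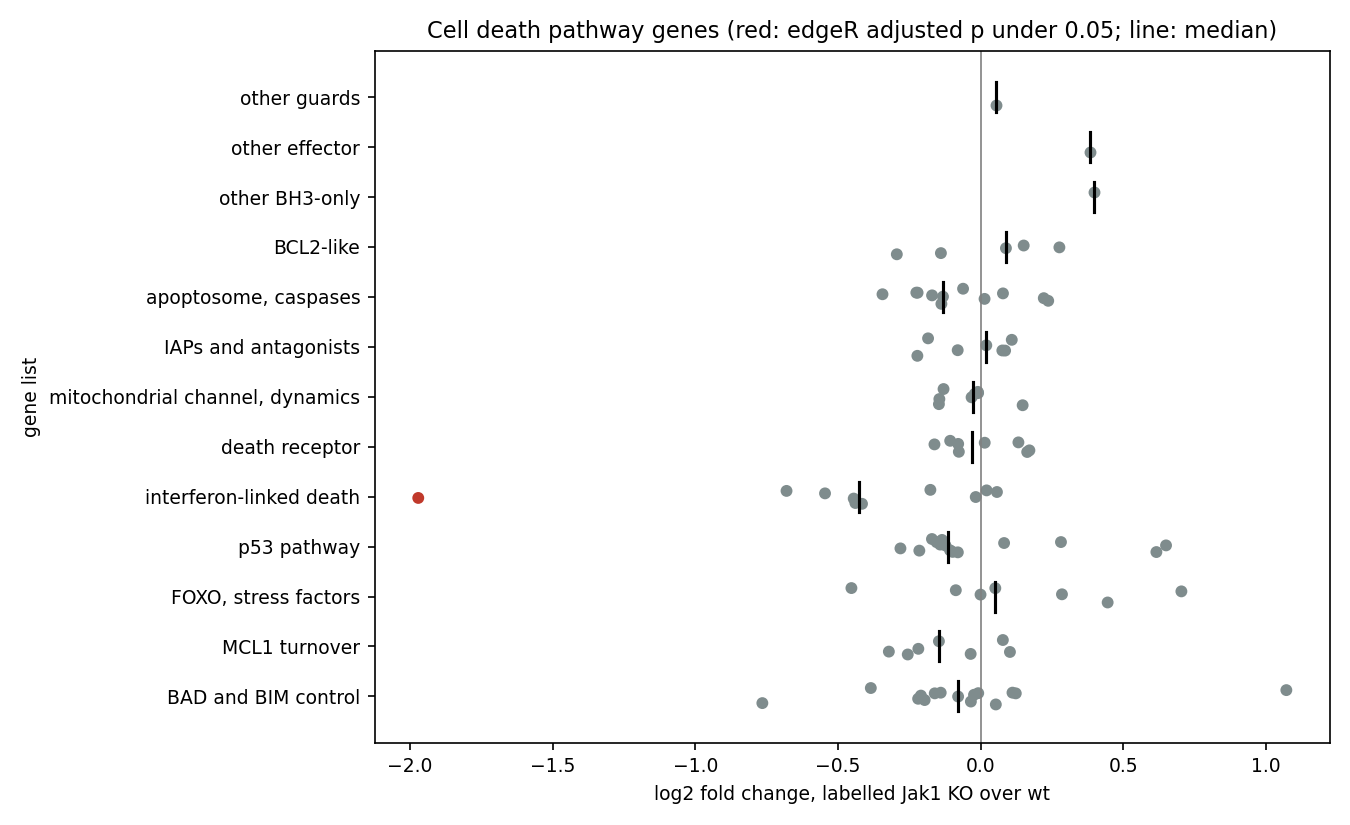
Log2 fold change (horizontal axis, labelled Jak1 KO over wt) of the 95 tested genes in 13 cell death lists, with the list median as a line and genes past edgeR's adjusted threshold in red. Zbp1, at -1.97, is the called gene, and the interferon-linked list has the lowest median, -0.43.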

How the data were processed

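Per the labels, LT-HSC RNA came from a Trizol extraction and libraries from a poly-A TruSeq protocol. The deposited values are raw counts of reads for each gene, made with STAR 2.3.0e, featureCounts and Subread on mm10, per the submitters' processing notes; no source used here names the annotation or strand setting. Columns were matched to samples through the labels. Genotype came from the titles and name set (VD or ZL) from the column names.

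Genes were filtered with filterByExpr, scaled by TMM and tested with edgeR 4.0.16 (R 4.3.3) by glmQLFit and glmQLFTest, labelled Jak1 KO over wt with name set as covariate. The Benjamini-Hochberg method, at 0.05, covered all 13184 tested genes. Reported CPM use TMM-scaled library sizes. The scripts were tested on simulated data. Exon lengths and positions came from GENCODE M21 and promoter windows from RefSeq (GRCm38.p6). DESeq2 1.42.0, limma-voom 3.58.1, other scalings and filters, single sets and leaving out libraries were alternatives.

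The named genes were all 10 members, Jak1, Irf9, per list the genes past the threshold or else that of smallest p, and the 3 profiles most like the member of smallest p. The members and lists were chosen with earlier results of these data known. Intervals and floors on counts cover counting error only. Summed marker levels of the other lists also fixed were 319.8 to 430.7 CPM in libraries labelled Jak1 KO and 269 to 441 in wt for progenitors, 95.6 to 1508 and 139.7 to 1518 for granulocytes, 233 to 954 and 217 to 501 for monocytes and macrophages, and 28.3 to 53.8 and 47.0 to 302 for erythroid cells. They were 29.2 to 142 and 28.2 to 68.3 for B cells, 25.5 to 195.0 and 36.4 to 92.2 for T and NK cells, 4.87 to 15.0 and 2.91 to 15.2 for mast cells and basophils, and 30.2 to 83.4 and 42.2 to 79.2 for stroma and endothelium, with 0 genes called in each.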

Additional observations from a re-analysis of the deposited data

Results flagged for a closer look

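Bad in Jak1 KO 4, at 86.7 CPM, lay far above the other 5 libraries labelled Jak1 KO (24.2 ± 8.33 CPM, SD). The gap to the next library made up 0.699 of the range of its group, over the critical value of 0.625 for 6 samples. This comparison pools 3 VD and 3 ZL libraries, although Bad was higher in ZL at equal genotype (log2 fold change 0.90 for ZL over VD, edgeR adjusted p = 0.0151). Chance marks about 1 in 20 groups in this way, and the rule was applied to all 10 members in each genotype. Its cause was not tested.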

How the results depend on the processing

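No family member was called for genotype, or for its interaction with name set, under any alternative run, including all 12 fits that left out 1 library. Bcl2, Bcl2l1, Bcl2l11, Bid and Bbc3 kept their direction in all 26 settings. Of these, 1 is the main fit read at a looser threshold, where the direction could not change. The settings share libraries and are not independent. Genes called over the whole table numbered 58, against 126 with DESeq2, 220 with limma-voom, 96 without Jak1 KO 4, Jak1 KO 6 and wt 6, 14 with no set term, 149 in VD alone, 0 in ZL alone (226 at an unadjusted p under 0.05) and 39 to 77 with 1 library left out. Pathway list genes called numbered 1, against 3 with limma-voom, 2 without those 3 libraries, 0 with no set term, 0 in ZL alone and 0 to 2 with 1 library left out. Bad turned to -0.29 with limma-voom, -0.25 without those 3 libraries, -0.41 in VD alone, -0.063 in the permutation and between -0.28 and 0.14 with 1 library left out. Bax turned to -0.20, -0.16 and -0.26 under the first 3 of these and ranged from -0.16 to 0.16 with 1 library left out. Bak1 turned to 0.15 in ZL alone and 0.049 without wt 6, and with 1 library left out Mcl1 ranged from -0.67 to 0.15 (without wt 4) and Jak1 from -0.046 (without Jak1 KO 6) to 0.35. Bcl2l2 turned to -0.076 with limma-voom, -0.032 with no set term, -0.022 in VD alone, and -0.065 to 0.16 with 1 library left out. Dnm1l turned to 0.022 in VD alone and ranged from -0.30 to 0.022 with 1 library left out, Birc3 to 0.029 in VD alone and Bmf to -0.20 in ZL alone. The causes were not tested, beyond the fewer libraries in single sets. With the replicate number as a block, 72 genes, 1 pathway list gene and 0 members were called, and Bad turned to -0.075. Same-numbered libraries correlated by 0.043 to 0.67 and 3 of 6 numbers matched best with their own. With so few libraries to match, this cannot settle whether the numbers pair them. Low counts limited Pmaip1, which most fits did not test.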
